A study of Mus musculus with 5 samples.

Results

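The Notch receptors and their ligands were examined in satellite cells of mdx and wild-type mice. The 8 genes were chosen by symbol: the receptors Notch1, Notch2, Notch3 and Notch4 and the ligands Dll1, Dll4, Jag1 and Jag2. Each was found once among the 22683 genes of the deposited expression table. Satellite cells are the resident stem cells of adult skeletal muscle and lie beneath the basement membrane of the muscle fiber. The mdx libraries (n = 3) came from satellite cells, described as quiescent, of mice with muscular dystrophy (mdx), which are mutant in Dmd, the gene of dystrophin, and serve as a model of Duchenne muscular dystrophy. The wild-type libraries (n = 2) came from satellite cells of wild-type mice, described in the same way. Both groups were sorted by flow cytometry and processed at once, with 10000 to 20000 cells per library, and total RNA was made into stranded libraries with a kit for small inputs. Strain, age, sex, muscle, the sorting gate and any pooling of animals are not stated in the labels. Whether the libraries came from separate animals is not stated either, so p-values reflect the spread of these 5 libraries, part of which may be technical.

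Notch signalling passes between touching cells. A Delta-like (Dll) or Jagged (Jag) ligand on the sending cell binds a Notch receptor on the receiving cell and is pulled into the sending cell by endocytosis. The receptor is then cut by ADAM proteases and by gamma-secretase, and its freed intracellular domain joins RBPJ in the nucleus to switch on genes such as the Hes and Hey repressors. In adult muscle, Notch signalling keeps satellite cells quiescent, and in blood vessels Notch1, Notch4, Dll4 and Jagged ligands act in endothelial cells while Notch3 acts in the smooth muscle and pericytes around them.

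Several facts of the libraries touch every result. Values are normalized read counts, that is, reads per gene scaled by the authors to make libraries comparable, and the library totals were 12473348 to 15930638 in mdx and 15217054 and 16825045 in wild type. The most abundant gene held 22.3%, 6.44% and 11.7% of the total in mdx 1, 2 and 3, against 3.52% and 3.40% in wild type 1 and 2. Genes listed at 0 numbered 4690, 4359 and 4066 in mdx, against 5329 and 6125 in wild type. Dmd had 4642, 4116 and 3700 normalized counts in mdx 1, 2 and 3, against 11826 and 9266 in wild type 1 and 2 (log2 fold change -1.34, limma adjusted p = 0.00099). Transcripts of the X-inactivation gene Xist had 0, 0 and 12 normalized counts in mdx, against 30235 and 30176 in wild type. The Y-linked gene Uty had 654, 724 and 584 in mdx, against 0 and 0 in wild type. Genotype and sex therefore cannot be told apart in these libraries. The summed normalized counts of 10 satellite cell identity markers were 39444 to 56691 in mdx, against 110648 and 101172 in wild type. Sdc4 and Chodl held 52.9% and 56.4% of the wild-type sums, and without these genes, chosen after their values were seen, the sums were 37366, 32257 and 46319 in mdx, against 52079 and 44099 in wild type, which overlap. Of these markers 2 rose and 7 fell. Pax7, the defining transcription factor of satellite cells, had 12767, 9751 and 14989 normalized counts in mdx, against 9103 and 7644 in wild type (limma adjusted p = 0.0698).

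Of the 8 receptors and ligands, 7 rose in mdx, none fell and Notch3 was not called (limma on log2 values, Benjamini-Hochberg adjusted p below 0.05 over all 18199 tested genes). Among all tested genes, 14.6% were called higher in mdx and 24.9% were called in either direction. In all 8 genes every mdx library lay above every wild-type library, which was also so for 28.2% of all tested genes. The median log2 fold change of the 8 genes was 1.48, against 0.135 over all tested genes. Notch4, Dll4 and Jag2 reached the minimum for testing (10 normalized counts or more in 2 or more libraries) only through the mdx libraries. Of the 5 genes that reached it in both wild-type libraries, 4 rose, and their median log2 fold change was 1.04. The shares and median over all tested genes include genes that passed through mdx alone, so they are not matched to these 5. The 8 genes showed 2 patterns, with 5 genes well expressed in both genotypes and 3 genes at or near 0 in wild type.

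**Figure D1:**
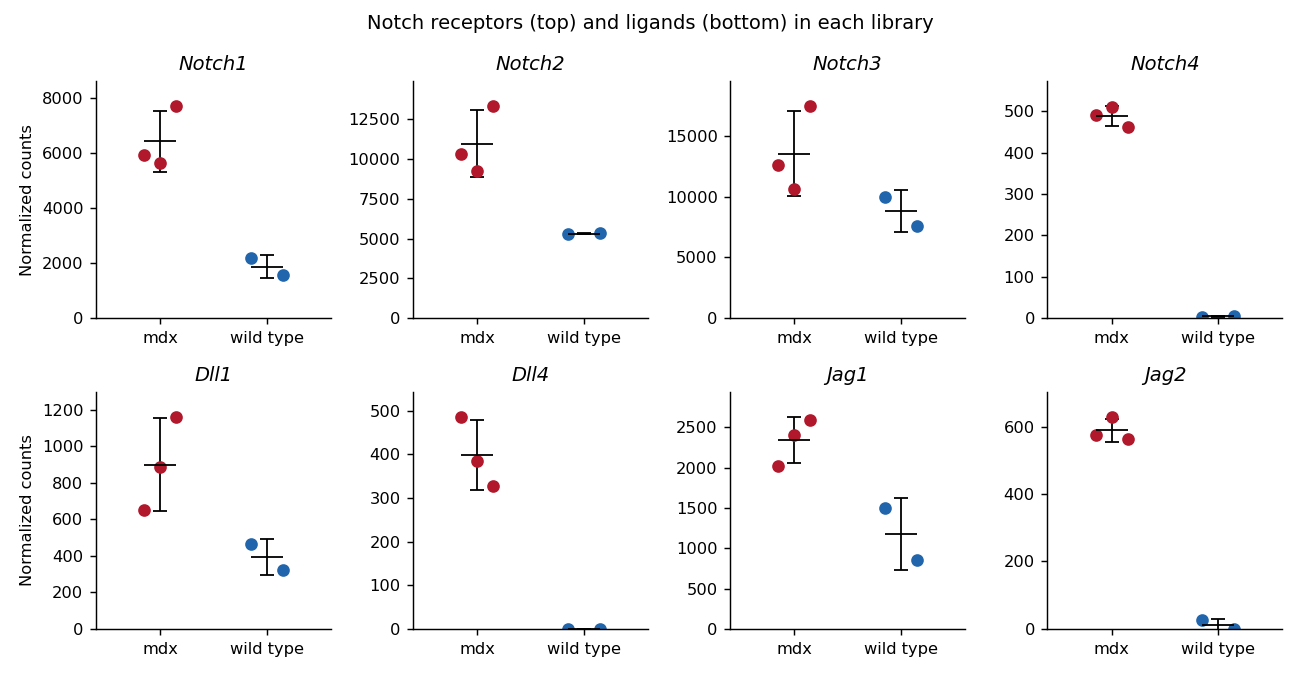
Normalized counts of each Notch receptor (top row) and ligand (bottom row). Points are single libraries, mdx on the left (n = 3) and wild type on the right (n = 2), and the line and bars give the mean and SD, drawn from 0 up. Every mdx point lies above every wild-type point, and Notch4, Dll4 and Jag2 lie between 0 and 25 in wild type.

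The promoters of the 3 genes near 0 in wild type, and of Notch3, the receptor that was not called, are shown to set side by side the sequence around their start sites. Each runs 5′ to 3′ on the gene's strand from 250 bases before the start site to 50 after it, from RefSeq on GRCm38.p6. The Jag2 window lies wholly within the span of the gene used here (112907819 to 112929776), as RefSeq places this start site further downstream. Capitals mark a GC box (GGGCGG) or an E-box (CANNTG) on either strand. These motifs were put in capitals after the matches were seen.
Dll4, chr2:119325534-119325833, plus strand: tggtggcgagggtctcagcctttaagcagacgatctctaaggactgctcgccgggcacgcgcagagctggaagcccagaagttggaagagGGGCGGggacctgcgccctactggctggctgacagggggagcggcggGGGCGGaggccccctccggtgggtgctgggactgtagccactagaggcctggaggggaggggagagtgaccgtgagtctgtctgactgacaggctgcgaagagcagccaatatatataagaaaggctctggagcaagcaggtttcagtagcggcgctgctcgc
Jag2, chr12:112929446-112929745, minus strand: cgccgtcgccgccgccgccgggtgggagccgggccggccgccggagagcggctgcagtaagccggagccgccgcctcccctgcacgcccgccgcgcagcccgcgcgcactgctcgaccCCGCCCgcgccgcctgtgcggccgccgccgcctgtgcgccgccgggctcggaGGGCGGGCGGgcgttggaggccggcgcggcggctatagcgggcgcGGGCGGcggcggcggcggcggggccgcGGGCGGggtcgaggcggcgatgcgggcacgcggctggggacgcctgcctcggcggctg
Notch4, chr17:34564045-34564344, plus strand: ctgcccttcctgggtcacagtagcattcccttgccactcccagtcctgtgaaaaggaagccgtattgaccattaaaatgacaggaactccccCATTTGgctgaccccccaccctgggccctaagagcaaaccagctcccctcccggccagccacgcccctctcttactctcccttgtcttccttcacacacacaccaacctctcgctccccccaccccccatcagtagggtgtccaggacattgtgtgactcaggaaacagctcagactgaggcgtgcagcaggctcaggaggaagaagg
Notch3, chr17:32166841-32167140, minus strand: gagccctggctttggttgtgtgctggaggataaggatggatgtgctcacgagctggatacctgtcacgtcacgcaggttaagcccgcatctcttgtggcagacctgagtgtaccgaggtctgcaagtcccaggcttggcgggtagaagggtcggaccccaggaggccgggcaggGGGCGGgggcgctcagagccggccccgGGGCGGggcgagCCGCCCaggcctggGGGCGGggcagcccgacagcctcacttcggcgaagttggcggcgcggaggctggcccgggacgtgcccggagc

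The 3 promoters near 0 in wild type did not share a base composition. G and C made up 63.7% of the Dll4 promoter, 86.0% of the Jag2 promoter and 58.3% of the Notch4 promoter, against 70.0% for Notch3 and a median of 52.7% over all 32851 promoters of the table. The GC box, the site of Sp factors, was found 2 times in Dll4, 5 times in Jag2, where 2 of the matches overlap, 4 times in Notch3 and 0 times in Notch4. All 8 genes matched the table, with 9 promoters because Dll1 has an additional start site. A GC box was found in 5 of the 9 promoters and in 35.7% of all promoters, and an E-box in 4 of the 9 and in 72.3%. The RBPJ core TGGGAA and the ETS core CCGGAA were searched on both strands and had 0 matches in the 9 promoters, against 25.6% and 14.9% of all promoters. A match is only a match of letters in this window.

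Among the receptors, Notch1 and Notch2 rose. Both are needed for satellite cells to stay quiescent. Notch1 (chromosome 2, 26457903 to 26503822, minus strand, mm10 throughout) had 5912, 5634 and 7678 normalized counts in mdx 1, 2 and 3, against 2181 and 1567 in wild type 1 and 2. The lowest mdx library was above the highest wild-type library, and the difference was a log2 fold change of 1.78 (SE 0.22, 95% interval 1.29 to 2.27, limma adjusted p = 0.000563), or 3.43-fold. Notch2 (chromosome 3, 98013538 to 98150361, plus strand) had 10350, 9279 and 13319 normalized counts in mdx, against 5288 and 5329 in wild type. The wild-type libraries were close together and the mdx libraries were spread above them, with a log2 fold change of 1.03 (SE 0.18, 95% interval 0.62 to 1.44, limma adjusted p = 0.00397), or 2.04-fold.

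Notch3, which acts in satellite cells and in vascular smooth muscle, did not pass the test. The gene (chromosome 17, 32120820 to 32166880, minus strand) had 12607, 10608 and 17437 normalized counts in mdx, against 10021 and 7611 in wild type. Its libraries did not overlap between genotypes, but the gap between the lowest mdx and the highest wild-type library was small beside the spread within mdx. The difference was a log2 fold change of 0.60 (SE 0.22, 95% interval 0.10 to 1.11, limma adjusted p = 0.0808), and 39.1% of all tested genes had a fold change above it. Leaving out wild type 1 gave a log2 fold change of 0.80 and leaving out wild type 2 gave 0.40, each from a single wild-type library. The antisense gene Gm17276 overlaps Notch3 over 21024 bases and had 121, 161 and 128 normalized counts in mdx, against 140 and 92 in wild type. The strand setting of the counting is not given in the sources used here, so reads of this pair cannot be told apart.

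Notch4, the receptor known chiefly from the endothelium, was close to absent from wild type. The gene (chromosome 17, 34564268 to 34588503, plus strand) had 490, 510 and 462 normalized counts in mdx, against 4 and 5 in wild type. The mdx libraries were within a narrow range and far above both wild-type libraries. The difference was a log2 fold change of 6.24 (SE 0.64, 95% interval 4.79 to 7.69, limma adjusted p = 0.000241), or 75.4-fold on the scale of the normalized count + 2. This size depends on the added 2 and was 5.10 with 10 added and 6.61 with 0.5 added, on the log2 scale.

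Among the ligands, all 4 rose in mdx, Dll1 and Jag1 by the smaller amounts. Dll1, a Delta-like ligand that activates Notch in neighbouring myogenic cells, lies on chromosome 17 (15367354 to 15375976, minus strand). It had 649, 886 and 1159 normalized counts in mdx, against 465 and 323 in wild type. The difference was a log2 fold change of 1.17 (SE 0.33, 95% interval 0.42 to 1.92, limma adjusted p = 0.0317), or 2.25-fold. Jag1, a Jagged ligand used in many tissues, lies on chromosome 2 (137081456 to 137116644, minus strand). It had 2025, 2408 and 2585 normalized counts in mdx, against 1494 and 858 in wild type, with a log2 fold change of 1.04 (SE 0.26, 95% interval 0.44 to 1.64, limma adjusted p = 0.0209), or 2.05-fold. Neither ligand overlapped between genotypes, but both calls were close to the threshold. The Dll1 call was lost without mdx 2 (limma adjusted p = 0.108) or mdx 3 (0.121). The Jag1 call was lost without mdx 1 (limma adjusted p = 0.068), mdx 2 (0.0936) or mdx 3 (0.105). Leaving out wild type 1 gave log2 fold changes of 1.43 for Dll1 and 1.44 for Jag1. Leaving out wild type 2 gave 0.91 and 0.64.

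The other 2 ligands were at or near 0 in wild type. Dll4, the Delta-like ligand of sprouting endothelium, lies on chromosome 2 (119325784 to 119335962, plus strand). It had 485, 385 and 327 normalized counts in mdx, against 0 and 0 in wild type (limma adjusted p = 0.000342). Because wild type was listed at 0, no fold is given for Dll4. Jag2, a Jagged ligand found in endothelium among other tissues, lies on chromosome 12 (112907819 to 112929776, minus strand). It had 576, 628 and 564 normalized counts in mdx, against 25 and 0 in wild type. The mdx libraries were close together, and wild type 1 held all of the wild-type signal. The difference was a log2 fold change of 6.33 (SE 1.0, 95% interval 4.06 to 8.60, limma adjusted p = 0.00231). Leaving out wild type 1 gave 8.21 and leaving out wild type 2 gave 4.45, each from a single wild-type library.

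**Figure D2:**
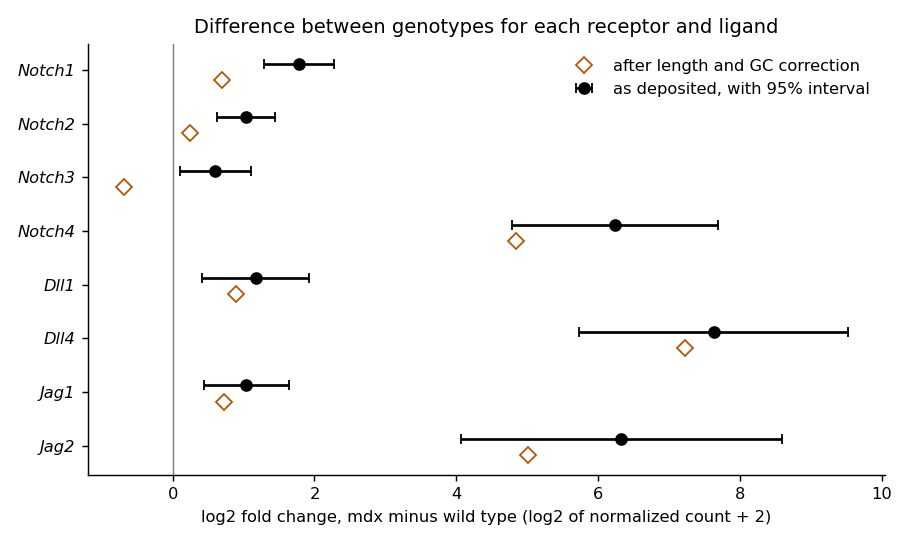
Log2 fold change of each gene, mdx minus wild type, on the scale of the normalized count + 2. Filled points with 95% intervals are the deposited values, and open diamonds are values after removing the dependence on transcript length and GC content within each library. The position of Dll4 depends on the added 2, since wild type was listed at 0, and Notch3 lies at 0.60 before and -0.68 after the correction.

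The sizes depended on transcript length and GC content, and among the 5 well-expressed genes so did calls. The 8 genes have long transcripts, from 3581 bases in Dll1 to 10500 in Notch2. When the dependence on length and GC content was removed within each library, the log2 fold change was 0.70 for Notch1 (limma adjusted p = 0.0428), 0.24 for Notch2 (0.392), 0.89 for Dll1 (0.0829) and 0.72 for Jag1 (0.0775), so that of these 4 genes Notch1 alone was called. Notch3 turned round to -0.68 (limma adjusted p = 0.0421). Notch4, Dll4 and Jag2 were still called higher, at 4.84 for Notch4 and 5.01 for Jag2, against 6.24 and 6.33 as deposited. A form of the correction that also set each library's mean to 0 moved the median of all genes to -0.34, and gave 0.16 for Notch1, -0.30 for Notch2 and -1.22 for Notch3.

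To compare levels between genes, normalized counts were divided by the length of the longest annotated transcript in kilobases. In mdx, Notch3 had the highest level at 1690.5 ± 438.0 per kilobase, ahead of Notch2 at 1046.0 ± 199.3 and Notch1 at 675.4 ± 116.8 (SD, n = 3). Jag1 at 416.8 ± 51.0 and Dll1 at 250.8 ± 71.3 came next. Jag2 at 115.4 ± 6.66, Dll4 at 106.5 ± 21.3 and Notch4 at 73.9 ± 3.66 were the lowest. In wild type, Notch3 had 1099.8 ± 212.6 per kilobase, Notch2 505.6 ± 2.76, Jag1 209.6 ± 80.1, Notch1 197.5 ± 45.8 and Dll1 110.0 ± 28.0 (SD, n = 2). Receptors outranked ligands in both genotypes, apart from Notch4 in both and Notch1 below Jag1 in wild type. Of the neighbours in these orders, Jag2 and Dll4 overlapped in mdx, and Jag1 and Notch1, as well as Jag2 and Notch4, overlapped in wild type. Summed over the class, the receptors had 4.15, 3.19 and 4.40 times the level of the ligands in mdx 1, 2 and 3, against 4.95 and 6.68 times in wild type 1 and 2.

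The make-up of each class was described by the share of each gene in the summed level per kilobase within a library, which does not depend on the scaling between libraries. Notch3 made up 48.3%, 46.0% and 50.3% of receptor transcripts in mdx, against 63.0% and 58.5% in wild type. Notch1 made up 19.1%, 20.6% and 18.7% in mdx, against 11.6% and 10.2% in wild type. Both shares were apart between the genotypes, with Notch3 lower and Notch1 higher in mdx. The share of Notch2 was 30.1% ± 0.696 in mdx (n = 3) and 28.3% ± 4.17 in wild type (n = 2), and its libraries overlapped. Notch4 was the least of the receptors in both genotypes, with 1.62% to 2.69% in mdx, against 0.0306% and 0.0467% in wild type.

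Among the ligands, Jag1 made up 46.0%, 47.6% and 46.9% of transcripts in mdx, against 66.4% and 62.9% in wild type. Dll1 made up 23.1%, 27.4% and 33.0% in mdx, against 32.4% and 37.1% in wild type, with overlap between the genotypes. The share of Jag1 was lower in every mdx library than in either wild-type library, although its level per kilobase was higher. Shares of a class are tied to each other, so larger shares of Dll4 and Jag2 leave less for Jag1 and Dll1. Dll4 made up 16.5%, 11.4% and 8.89% of ligand transcripts in mdx and 0% in wild type, and Jag2 14.4%, 13.6% and 11.2% in mdx, against 1.22% and 0% in wild type. The two-sided exact permutation test used here doubles the smaller of its directional p-values, and with 3 against 2 libraries it cannot go below p = 0.2. No share could therefore pass a threshold of 0.05. The exact p was 0.2 for Notch1, Notch3, Notch4, Dll4, Jag1 and Jag2, 0.4 for Dll1 and 0.8 for Notch2 (0.267, 0.457 and 0.8 after Benjamini-Hochberg adjustment over the 8 tests).

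**Figure D3:**
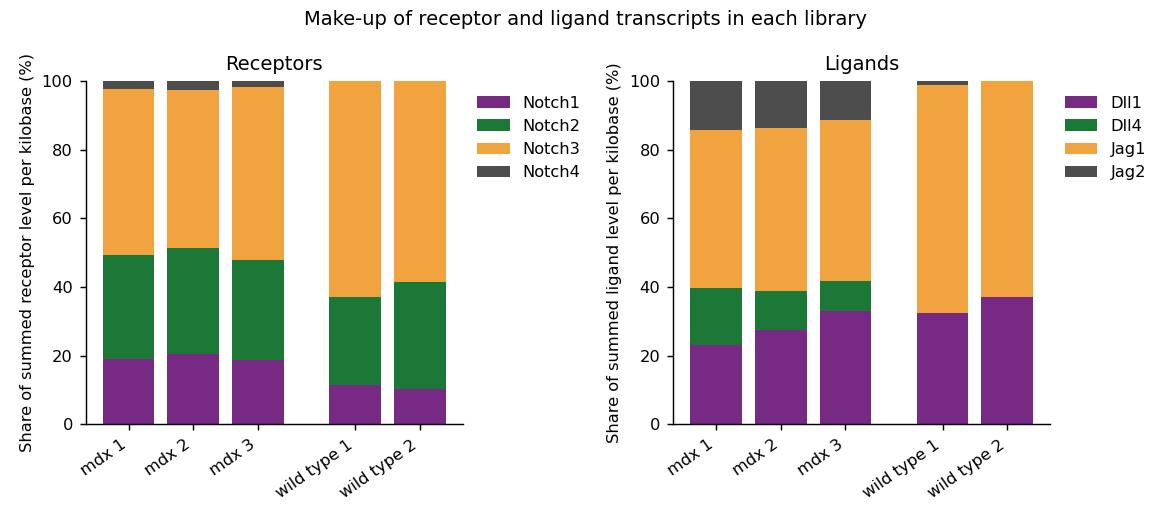
Share (%) of each receptor (left) and each ligand (right) in the summed normalized counts per kilobase of its class, for mdx 1 to 3 and wild type 1 and 2. Notch3 takes 46.0% to 50.3% of the receptor level in mdx and 63.0% and 58.5% in wild type, and Dll4 and Jag2 fill ligand shares in mdx that are 0% to 1.22% in wild type.

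Markers of other cells of muscle moved with these genes. Of 16 endothelial markers 15 rose in mdx and Tek fell, and their summed normalized counts were 24747 to 32997 in mdx, against 3394 and 2950 in wild type. Most of the wild-type sum was Tek, an angiopoietin receptor, at 1429, 1790 and 2025 in mdx, against 3223 and 2568 in wild type. The call of Tek was lost without mdx 1, mdx 2 or mdx 3. Emcn, Cldn5, Sox17, Erg, Robo4 and Ptprb were, like Dll4, at 0 in each wild-type library. Ptprb, the endothelial phosphatase VE-PTP, had 7591, 7030 and 5276 normalized counts in mdx, and Cdh5, the endothelial cadherin, had 4819, 4253 and 4505 in mdx, against 12 and 45 in wild type. Within mdx, Dll4 was highest in mdx 1 and lowest in mdx 3, the order of the endothelial sum. Notch4 and Jag2 were highest in mdx 2 and lowest in mdx 3, the order of the macrophage and myofiber sums described next. These orders rest on 3 libraries and were not tested.

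Other lists moved as well. Pericyte and smooth muscle markers summed to 18849 to 20144 in mdx, against 9994 and 8067 in wild type, with 6 of 10 called higher, 1 lower and none at 0 in both wild-type libraries. Most of the wild-type sum was Des, at 5718 and 4672, and Acta2, at 2925 and 2129. Myh11 had 1305, 1688 and 1220 in mdx, against 2 and 0 in wild type. Tagln, the marker that fell, had 22, 0 and 8 in mdx, against 168 and 213 in wild type. Of 12 fibro-adipogenic progenitor markers 9 rose and 1 fell, with sums of 62110 to 111133 in mdx, against 28462 and 24460 in wild type and Cd248 at 0 in both wild-type libraries. Most of the wild-type sum was Gsn, which was not called, at 17849 and 13729, and Dpt, which fell, at 9675 and 9371. Col1a2, which rose, had 31652, 23470 and 22299 in mdx, against 32 and 32 in wild type. Of 12 macrophage markers 10 rose, with sums of 10670 to 15829 in mdx, against 428 and 675 in wild type, and Mrc1, C1qa, C1qb, C1qc and Itgam were at 0 in both wild-type libraries. Most of the wild-type sum was Cd68, at 523, 372 and 307 in mdx, against 282 and 423 in wild type. Cd68 and Fcgr1 were not called. Schwann cell markers (6 of 8 higher) summed to 1060 to 1537 in mdx, against 356 and 479 in wild type, with Cdh19, S100b and Gfra3 among those at 0 in both wild-type libraries. Myofiber genes (3 of 9 higher) summed to 28703 to 71912 in mdx, against 3960 and 3356 in wild type, and none was at 0 in both wild-type libraries. Ttn, the gene of the giant protein titin, held 82.2% to 90.0% of the myofiber sum in mdx and 62.5% and 62.6% in wild type. Without Ttn the sums were 5018 to 8062 in mdx, against 1485 and 1256 in wild type. Neb, which rose, had 4133, 5665 and 2474 in mdx, against 354 and 287 in wild type. Acta1, which also rose, had 2255, 933 and 1234 in mdx, against 206 and 260 in wild type. The other 6 myofiber genes were not called. The part of these cells in the levels of the Notch receptors and ligands was not tested. In sorted bulk cells, more cells of a type and more RNA per cell cannot be told apart.

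**Figure D4:**
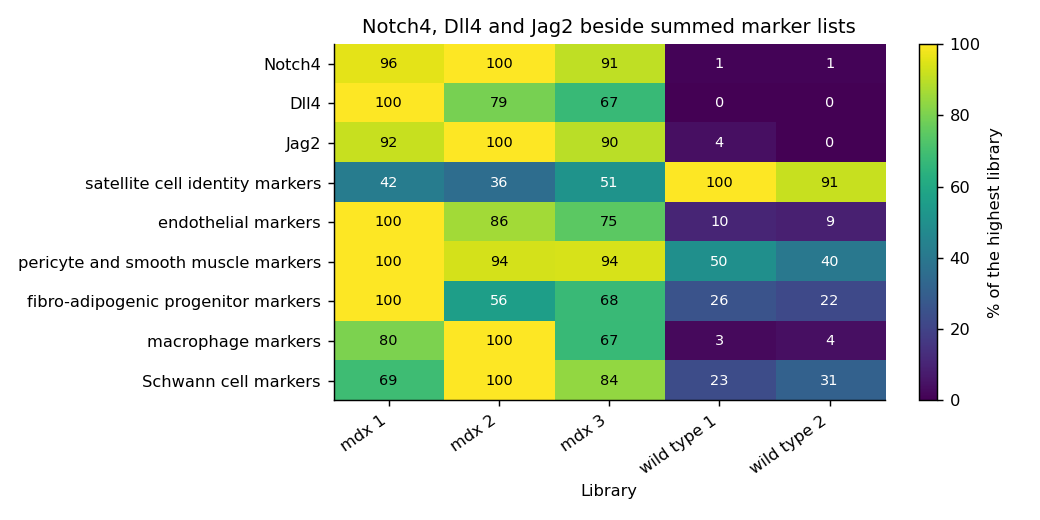
Notch4, Dll4, Jag2 and the summed normalized counts of 6 marker lists in each library, as a percentage of the library where each was highest, mdx on the left and wild type on the right. The endothelial sum is 75.0% to 100% in mdx and 10.3% and 8.94% in wild type, and the satellite cell sum is 35.6% to 51.2% in mdx and 100% and 91.4% in wild type.

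The rest of the pathway was described by 7 lists of genes by role. Of 56 tested genes 18 rose, 2 fell and 36 were not called, with a median log2 fold change of 0.78. Of the 56 genes, 12 lay below 10 in at least 1 wild-type library, and 7 of those that rose were among these: Egfl7, Mfap5, Nov, Dlk1, Neurl1b, Lfng and Bend6, which passed the filter through mdx. Of the 44 genes at 10 or more in both wild-type libraries 11 rose, 2 fell and 31 were not called, with a median of 0.25. Without mdx 1, mdx 2 or mdx 3, 12 genes were called in place of 20. These lists were chosen with the data known. Of all tested genes, those that passed through mdx alone included, 14.6% were called higher. Of 5 atypical ligands, Egfl7, Mfap5, Nov and Dlk1 rose and 1 was not called. The call of Dlk1, a transmembrane relative of the Delta ligands, was lost without mdx 1 (limma adjusted p = 0.0506) or mdx 3 (0.0607). Mfap5, a microfibril protein, had 209, 167 and 166 normalized counts in mdx, against 0 and 0 in wild type. Egfl7, a secreted endothelial protein that is also on the endothelial list, had 984, 650 and 371 in mdx, against 12 and 4 in wild type (log2 fold change 6.08, SE 0.69, limma adjusted p = 0.000398).

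The machinery of the ligand-sending cell was higher in part. Of 7 tested genes of ligand endocytosis 4 rose and 3 were not called. Mib1, the ubiquitin ligase that marks ligands for uptake, had 5832, 6658 and 5076 normalized counts in mdx, against 3875 and 3858 in wild type (log2 fold change 0.59, SE 0.17, limma adjusted p = 0.0368). That call was lost after the length and GC correction (log2 fold change 0.28, limma adjusted p = 0.198). It was also lost without mdx 1, mdx 2 or mdx 3 (limma adjusted p 0.0526 to 0.112). Neurl1b, another ligase of Notch ligands, had 199, 511 and 216 in mdx, against 0 and 18 in wild type, and was called with all libraries but not without mdx 1, mdx 2 or mdx 3 (limma adjusted p 0.0532 to 0.0668). Epn1 and Dnm2, which form endocytic vesicles, rose by log2 fold changes of 1.68 and 1.37 (limma adjusted p = 0.00382 and 0.00494). After the length and GC correction neither was called (0.0944 and 0.0518), nor was Epn1 without mdx 3 (0.0501).

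Receptor maturation was mixed, and the proteases were mostly not called. Furin, which cleaves the receptor on its way to the surface, had 2025, 1874 and 2476 normalized counts in mdx, against 676 and 811 in wild type (log2 fold change 1.51, SE 0.22, limma adjusted p = 0.00155). The length and GC correction gave 0.79 for Furin (limma adjusted p = 0.0302), and its mean-centred form 0.25 (0.426, not called). Lfng, the fringe sugar transferase that tunes the response to Dll and Jag ligands, had 169, 157 and 183 in mdx, against 34 and 0 in wild type (limma adjusted p = 0.0298), a call lost without mdx 1, mdx 2 or mdx 3 (0.116 to 0.135) and after the length and GC correction (0.0505). Poglut1, which adds O-glucose to receptors, fell to 218, 254 and 297 in mdx, against 1360 and 1167 in wild type (log2 fold change -2.30, SE 0.30, limma adjusted p = 0.000883). Among 9 protease genes, Psenen, a gamma-secretase subunit, fell to 101, 120 and 113 in mdx, against 513 and 780 in wild type (log2 fold change -2.49, SE 0.43, limma adjusted p = 0.0034, and -1.67 after the length and GC correction). The other 8, the ADAM proteases and the presenilins among them, were not called.

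Of 12 genes of the nuclear complex and its co-regulators 7 rose, none fell and 5, Rbpj among them, were not called. After the length and GC correction 4 were called higher and 1 lower, and 0 higher and 2 lower in its mean-centred form. Those that rose as deposited included Maml1, Maml2 and Maml3, the Mastermind co-activators, the acetyltransferases Ep300 and Crebbp, and Spen, a co-repressor. Crebbp had 6936, 6163 and 6494 normalized counts in mdx, against 2271 and 1977 in wild type (log2 fold change 1.62, SE 0.17, limma adjusted p = 0.000238). The length and GC correction gave 0.95 for Crebbp (0.00424) and 0.61 for Spen (0.048), against 1.82 as deposited for Spen, and its mean-centred form gave 0.41 (0.0869) and 0.07 (0.804), so that neither was called. The calls of Maml1, Maml2 and Ep300 were lost after the length and GC correction (limma adjusted p = 0.173, 0.171 and 0.591). Calls of Maml1 and Maml2 were also lost without mdx 1, mdx 2 or mdx 3 (limma adjusted p 0.0607 to 0.121). Ep300 and Maml3 were not called without mdx 1 or mdx 2 (limma adjusted p 0.0536 to 0.0582). Rbpj, the DNA-binding partner of the cleaved receptor, had 1194, 1589 and 1027 in mdx, against 1244 and 1480 in wild type, and its libraries overlapped. Of 12 inhibitors and turnover genes 1 rose, Bend6, which binds RBPJ, at 24, 111 and 64 in mdx and listed at 0 in wild type. Its call was lost without mdx 2 (limma adjusted p = 0.0524) or mdx 3 (0.0603).

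None of the 5 tested genes listed as Hes and Hey targets was called by limma, and 0 had an unadjusted p below 0.05. All 5 overlapped between the genotypes. Among them Hey2 was too low to be informative, at 34, 0 and 5 normalized counts in mdx, against 4 and 11 in wild type. Heyl, a Hey repressor, had 5647, 5845 and 7051 in mdx, against 6891 and 6659 in wild type (log2 fold change -0.14, SE 0.16, limma adjusted p = 0.57). Hey1 had 1072, 648 and 1078 in mdx, against 720 and 1337 in wild type, and Hes1 had 774, 619 and 854 in mdx, against 532 and 1058 in wild type. Hes6, which antagonises Hes1, had 90, 230 and 338 in mdx, against 37 and 107 in wild type (log2 fold change 1.57, SE 0.75, limma adjusted p = 0.159). Without wild type 2, Hes6 had a log2 fold change of 2.31, from a single wild-type library. After the length and GC correction Heyl was called lower at -0.64 (limma adjusted p = 0.0158). These p-values do not show that the targets were equal between the genotypes.

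**Figure D5:**
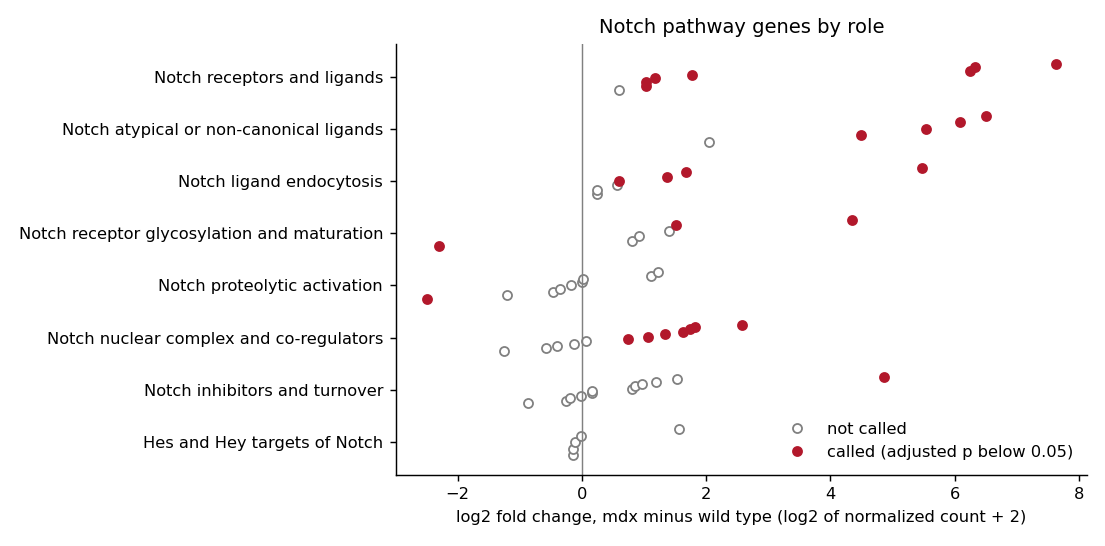
Log2 fold change, mdx minus wild type, of the receptors and ligands and of the tested genes of 7 Notch pathway lists. Filled points were called (limma adjusted p below 0.05) and open points were not. The Hes and Hey targets hold 0 called genes of 5, and the nuclear co-regulators 7 of 12.

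Genes known to depend on Notch in quiescent satellite cells were also listed. Of 11, 6 rose, 3 fell and 2 were not called, with a median log2 fold change of 0.90. The members that rose were Tenm4 and the collagen genes Col5a1, Col5a2, Col5a3, Col6a1 and Col6a2. Collagen V chains are direct targets of Notch in satellite cells, and fibro-adipogenic cells also express collagen V and VI. Col5a1 had 12851, 11414 and 12917 normalized counts in mdx, against 3435 and 2270 in wild type (log2 fold change 2.15, SE 0.20, limma adjusted p = 0.000141). The length and GC correction gave 1.02 for Col5a1 (limma adjusted p = 0.00617) and its mean-centred form 0.48 (0.0686, not called). The same correction ended the calls of Col5a3 (0.00, limma adjusted p = 1.0), Col6a1 (0.34, 0.399) and Tenm4 (1.11, 0.0504). The members that fell were Calcr, Cd34 and Chrdl2. Calcr, the calcitonin receptor of quiescent satellite cells, had 1457, 1282 and 1824 in mdx, against 6646 and 4956 in wild type (log2 fold change -1.93, SE 0.22, limma adjusted p = 0.000446). Calls were lost for Col5a3 without mdx 1 or mdx 3 and for Tenm4 without mdx 3. For Col6a1 and Chrdl2 calls were lost without mdx 1, mdx 2 or mdx 3. Pax7, Calcr and Cd34 also stand on the satellite cell identity list.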

How the data were processed

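Total RNA was sequenced from sorted satellite cells in 5 libraries, 3 mdx and 2 wild type, grouped by the labelled genotype. The submitters' processing notes name STAR 2.6.1d, featureCounts 1.6.3, Subread, DESeq2 1.18.1 and the build mm10. The deposited values are normalized counts rounded by the authors to whole numbers, and their unit is treated as a score, judged from the values. The median ratio to each gene's geometric mean was 1.0347 to 1.0355 in all libraries while totals differed, and in mdx 1 the column skips 6 whole numbers between 1 and 30. Raw counts and the exact depth are therefore unknown.

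Values were transformed to log2(value + 2), and 18199 genes with at least 10 in at least 2 libraries were fitted with genotype as the only term in limma 3.58.1 (R 4.3.3), with robust moderation along the mean trend. Two-sided p-values were adjusted by Benjamini-Hochberg over these genes and read at 0.05. Of these genes 2659 rose and 1868 fell, and 6933 had an unadjusted p below the threshold. Intervals are 95% intervals of the fit. Shares were tested by exact permutation with SciPy 1.17.1. Transcript lengths and GC content came from GENCODE M21, which held 22649 of the 22683 identifiers, and promoters from RefSeq. The length and GC correction removed a spline with 5 degrees of freedom per library, and the steps were tested on simulated data.

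The 8 genes and all lists were chosen with earlier results of these data known. Named genes are the 8 genes, Dmd, sex-linked genes and, per list, up to 4 called genes with the smallest p, or up to 2 where none was called. Any gene of a Notch list could be named, and the other list genes were named after their values were seen. A few further list genes are not reported here. The alternatives tried were other pseudocounts, filters, scalings and moderation, the length and GC correction, a replicate block and leaving out each library.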

Additional observations from a re-analysis of the deposited data

How the results depend on the processing

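Notch4, Dll4 and Jag2 were called higher in mdx under every alternative that kept both wild-type libraries. These genes passed the filter only through mdx, and all alternatives use the same 5 libraries, so this is no separate support. Among the same alternatives Notch1 lost its call under 1. This was the length and GC correction that set each library's mean to 0 (log2 fold change 0.16, limma adjusted p = 0.575). That form was the first one written. It was replaced, after its values for these genes had been seen, by the form that keeps each library's median, so both are given. The mean-centred form called 4 of the 8 genes, Notch3 as lower among them, against 7 as deposited, and turned Notch2 to -0.30, Notch3 to -1.22, Mib1 to -0.25, Ep300 to -0.40, Pax7 to -0.65, Col5a3 to -0.54 and Col6a1 to -0.19. The median-keeping form called 5, again with Notch3 as lower, and turned Notch3 to -0.68, Pax7 to -0.12, Hes1 to 0.42 and Hey1 to 0.11. Higher calls made up 31.4% of all calls under the mean-centred form, against 58.7% as deposited. The median log2 fold change of all genes was 0.32 with values scaled to equal library totals and 0.00 with quantile normalization, under which Notch3 was called (1.35, adjusted p = 0.00199). Genes with small differences turned round as well: scaling to equal totals gave 0.07 for Rbpj, 0.17 for Hes1, 0.08 for Hey1 and 0.05 for Heyl, quantile normalization gave 0.04 for Hes1 and 0.35 for Heyl, and the replicate block gave 0.02 for Rbpj. Leaving out 1 library gave -0.29 to 0.02 for Rbpj, -0.51 to 0.48 for Hes1 and -0.56 to 0.33 for Hey1. Notch3 was also called with no filter (adjusted p = 0.0373). Plain moderation called 4 of the 8 genes, losing Notch2 (adjusted p = 0.108), Dll1 (0.133) and Jag1 (0.148), with 12 pathway genes, against 20, and 3005 genes in all, against 4527. With the replicate number as a block, 5 of the 8 genes were called (Dll1 0.155, Jag1 0.107), with 12 pathway genes and 2023 genes in all. Nothing in the labels says that the numbers pair libraries, and the correlations of deviations were -0.014 and -0.017 for the 2 same-numbered pairs. The deviations of the 2 wild-type libraries mirror each other, so these values are tied and do not settle pairing. Leaving out 1 library called 5 to 8 of the 8 genes, 12 to 22 pathway genes, 0 to 1 Hes and Hey targets and 2562 to 5161 genes in all. Leaving out mdx 1, 2 or 3 gave a count of 12 pathway genes each time, spread differently over the lists, and 2975, 2677 and 2562 genes in all. The Hes and Hey count was added after its value was seen, and was 1 under both forms of the length correction. Shares with the mean coding transcript length differed between mdx and wild type by 10.6 points for Notch1, 1.37 for Notch4, -15.8 for Jag1 and 17.0 for Jag2, and Notch4 by 1.58 points when not divided by length. Leaving out 1 library gave -1.17 (without wild type 1) to 4.73 points (without wild type 2) for Notch2 and -19.6 to -16.1 for Jag1. The causes of these changes were not tested. Wild-type values of 0 to 25 limit the precision of the Notch4, Dll4 and Jag2 sizes, and the depth behind them is unknown.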

Other observations

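For each of the 8 genes, the genes with the most similar pattern over the 5 libraries were found by the root-mean-square difference of log2 values centred on each gene's mean. The genes closest to Dll4 were Fbln5 (0.084) and Emcn (0.086), an endothelial sialomucin. Fbln5 had 459, 380 and 369 normalized counts in mdx, and like Dll4 and Emcn its wild-type values were all 0. The genes closest to Notch4 were Tspan9 (0.122) and Sparcl1 (0.153), and those closest to Jag2 were Fam43a (0.173) and Creb3l1 (0.191). Notch1 was closest to Ssc5d (0.067) and Pik3r4 (0.084), Notch2 to Atf6b (0.058) and Timp2 (0.085), and Notch3 to Ddah2 (0.056) and Gab1 (0.071). Dll1 was closest to Cenpn (0.077) and Sf3a1 (0.084), and Jag1 to Zfp346 (0.036) and Calm3 (0.073). These are descriptions over 5 libraries that share a single contrast.

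Genes annotated within Notch2 on the same strand can share reads with it. Gm42819 had 389, 612 and 282 normalized counts in mdx, against 174 and 287 in wild type, and Gm42820 had 334, 153 and 258 in mdx, against 45 and 186 in wild type.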
